A study of Mus musculus with 2 samples.

Results

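The 500 strongest EP300 peaks of newborn mouse lung were examined, out of 43296 reproducible peaks on chromosomes 1 to 19 and 43988 in the whole series. EP300 had been mapped by ChIP-seq (immunoprecipitation of chromatin, in which DNA bound by a protein is recovered with an antibody and sequenced) in whole lung of B6NCrl mice at postnatal day 0. No transgene, allele or treatment is named in the labels. The 2 libraries formed 1 group and were numbered as biological replicates, but their labels name a single donor and a single biosample, and the spread between the libraries may therefore be technical only. Whole lung mixes epithelium, endothelium, mesenchyme and blood, so more cells with a site occupied and more EP300 per cell cannot be told apart. No condition was compared and no test is given, since peaks are not replicates. Shares carry 95% Wilson intervals that cover the counting of peaks only, and neighbouring peaks are not independent.

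EP300 is a lysine acetyltransferase that is brought to enhancers and promoters by transcription factors bound to DNA, where it acetylates histones and other proteins. An enhancer may lie far from the gene it acts on, within another gene or between genes, so that the nearest gene named below is a position and not a measured target. The glucocorticoid receptor, a hormone-activated transcription factor needed for the lung to mature before birth, recruits coactivators of this kind. It binds an inverted repeat, the glucocorticoid response element, which the mineralocorticoid, androgen and progesterone receptors also recognise.

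Members were chosen by the signal value that the authors had deposited for each peak of their optimal set, made from both libraries pooled. The scaling of this value is not stated. The chosen signal values ran from 628 down to 250.5, with a median of 299, against a median of 48.6 over all optimal peaks. Only 59 members exceeded 400, another 189 lay between 300 and 400, and 252 were at or below 300. The members made up 1.15% of the optimal peaks and carried 5.77% of their summed signal. There was no step at the limit. The last members lay nearest to Ckmt2 (250.84, in Rasgrf2), Npvf (250.72), Gramd2 (250.67), Fkbp5 (250.64) and Prkch (250.50). The first peaks left out lay nearest to Marcks (250.25), Sema6d (250.09), Cyp26b1 (249.95), Osbpl6 (249.75) and Homer3 (249.42, in Sugp2). All 500 members were also in the authors' conservative set. The rule left out the X chromosome, where 2 optimal peaks exceeded the lowest member.

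The sequences below show what lay under the highest signals. They are the central 100 bp of the 10 strongest members, centred on the summit (the position of highest signal within a peak), on the plus strand of GRCm38.p6 (mm10) as given by RefSeq. Capitals mark a glucocorticoid response element, searched as GNACA, any 3 bases, TGTNC, or, where there was none, a match to another sequence searched. Those other matches are a TEAD sequence at Lmo7, an ETS sequence at Fos, a glucocorticoid half-site at Slc44a3 and a STAT sequence at Bnip3. The Fos centre also held a half-site and the Bnip3 centre a FOX sequence, both left in lower case. The capitals at Fos and Slc44a3 read on the minus strand.
Zbtb16, chr9:48723669-48723768: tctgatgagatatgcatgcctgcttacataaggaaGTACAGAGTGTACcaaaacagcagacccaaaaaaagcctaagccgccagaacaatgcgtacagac
Lmo7, chr14:101838640-101838739: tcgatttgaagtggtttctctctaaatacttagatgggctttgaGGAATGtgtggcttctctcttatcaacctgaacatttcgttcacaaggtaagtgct
Cblb, chr16:52094792-52094891: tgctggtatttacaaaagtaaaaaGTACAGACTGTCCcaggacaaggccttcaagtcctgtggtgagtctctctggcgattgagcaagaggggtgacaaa
Fos, chr12:85532680-85532779: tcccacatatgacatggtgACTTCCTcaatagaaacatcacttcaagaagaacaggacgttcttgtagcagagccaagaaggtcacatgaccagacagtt
E030018B13Rik, chr7:63897016-63897115: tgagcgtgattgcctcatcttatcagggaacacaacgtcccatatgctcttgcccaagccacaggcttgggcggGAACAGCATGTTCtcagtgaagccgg
Irf2bp2, chr8:126736662-126736761: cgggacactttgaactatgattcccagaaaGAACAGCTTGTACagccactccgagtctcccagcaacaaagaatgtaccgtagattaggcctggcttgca
Slc44a3, chr3:121561905-121562004: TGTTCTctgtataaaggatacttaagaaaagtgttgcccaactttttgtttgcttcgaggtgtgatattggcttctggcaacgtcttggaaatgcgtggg
Npnt, chr3:132940718-132940817: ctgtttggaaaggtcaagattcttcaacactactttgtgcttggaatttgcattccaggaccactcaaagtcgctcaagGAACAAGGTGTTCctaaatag
Bnip3, chr7:138919390-138919489: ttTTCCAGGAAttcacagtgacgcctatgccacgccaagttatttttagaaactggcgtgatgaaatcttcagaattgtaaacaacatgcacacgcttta
Cdc42ep4, chr11:113807249-113807348: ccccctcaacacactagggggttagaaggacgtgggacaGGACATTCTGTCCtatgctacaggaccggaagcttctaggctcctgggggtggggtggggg
The elements near E030018B13Rik and Npnt have GAACA in both arms of the repeat, while those near Zbtb16, Cblb and Cdc42ep4 have it in neither.

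Glucocorticoid response elements were more frequent toward the top of the ranking. A match lay within the central 100 bp of 83 members (16.6%, 13.6 to 20.1%), against 2.17% of all optimal peaks. In flanking windows of 100 bp, placed 500 bp to either side of the same members, 2 of 1000 held a match. Within the members the share was 32% at ranks 1 to 100, 19% at ranks 101 to 200, 15% at ranks 201 to 300, 10% at ranks 301 to 400 and 7% at ranks 401 to 500. The intervals of the first and last of these groups were 23.7 to 41.7% and 3.43 to 13.7%. Below the limit the share was 9.6% at ranks 501 to 1000, 5.9% at ranks 1001 to 2000 and 1.04% beyond rank 32000. The strongest 500 peaks of each library taken alone gave 16.4% in replicate 1 and 16.4% in replicate 2. The difference between members and other peaks was not tested.

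**Figure D1:**
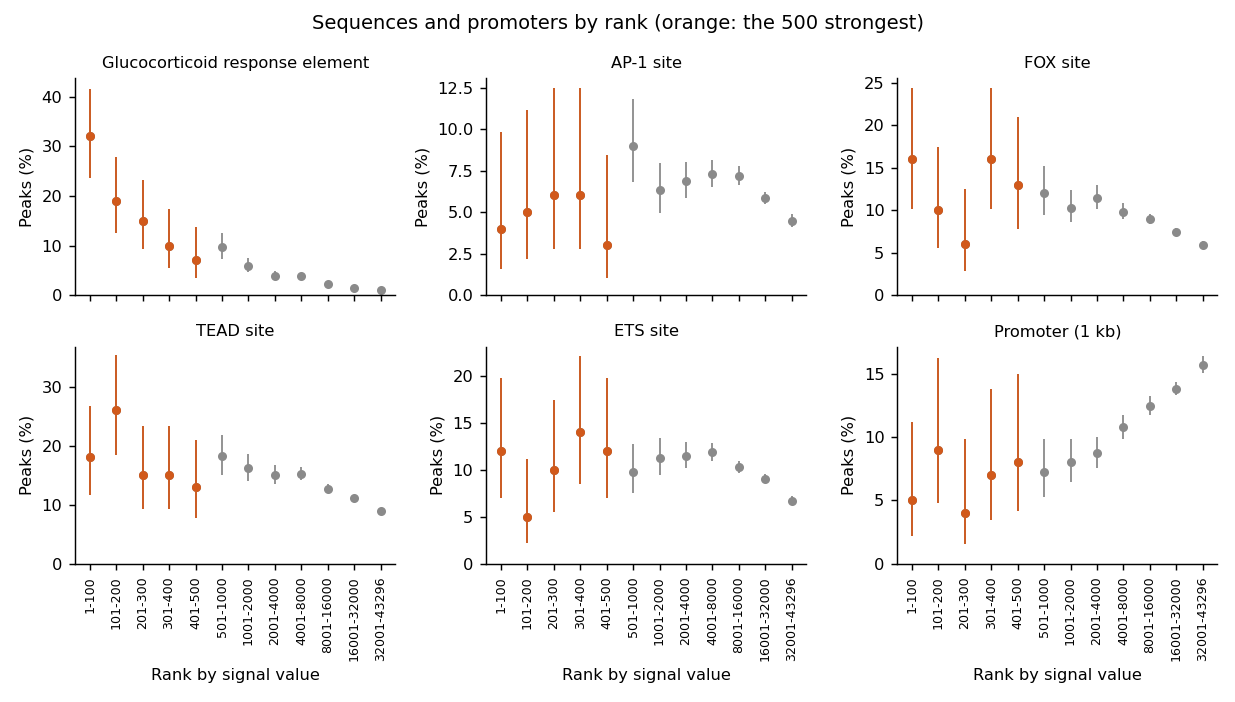
Share of optimal peaks (%, vertical axes, each with its own scale) that held a glucocorticoid response element, an AP-1, FOX, TEAD or ETS sequence in the central 100 bp, or a summit in a promoter, by rank of signal value (horizontal axes). Points are shares and lines 95% Wilson intervals, with the 500 strongest in orange. The response element falls from 32% at ranks 1 to 100 to 1.04% beyond rank 32000, while promoters are less frequent among the members than in the weakest peaks.

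The elements sat close to the summits. Within 250 bp of the summits of members there were 104 matches, of which 67 (64.4%) had their centre within 25 bp of the summit, against 42.0% of matches around all optimal peaks. The median offset was 18.5 bp in members and 31 bp in all optimal peaks. The shares and medians count every match within 250 bp, including those far from the summit. Around all optimal peaks 117, 98 and 104 of 1538 matches lay at 100 to 150, 150 to 200 and 200 to 250 bp. In members 3, 4 and 1 of 104 did. Such far matches lower the share and raise the median, so closer placement in members is not shown. How much of the difference they make was not tested. Of the 85 matches inside the central 100 bp, 16 had GAACA in both arms, 42 in a single arm and 27 in neither. The 83 members with an element had 75 different nearest genes, and only Zbtb16, with 5, was nearest to more than 2 of them. Genes nearest to 2 of them included Cblb, a ubiquitin ligase gene, Cttnbp2nl and the mitochondrial carrier gene Slc25a33, named with their values seen. Members with an element had a median GC content of 50%, against 46% in the other 417. A TEAD sequence was in 10.8% of the members with an element and 18.7% of those without, and a FOX sequence in 7.23% and 13.2%. The element and the signal that chose the members come from one ranking, and these splits were not tested.

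**Figure D2:**
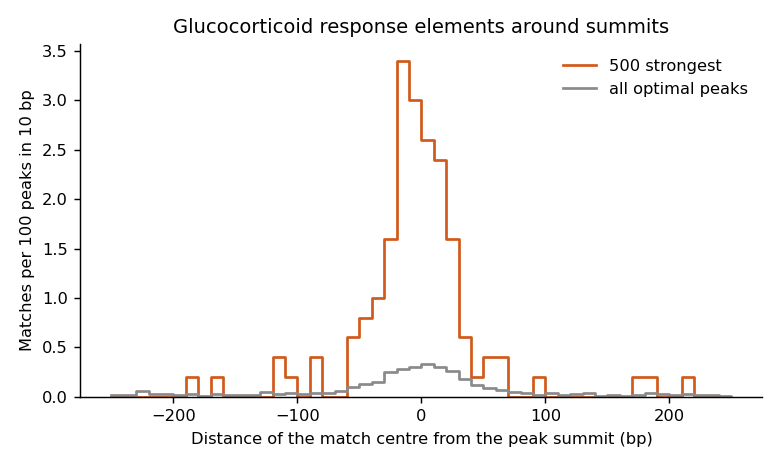
Number of glucocorticoid response elements per 100 peaks in bins of 10 bp (vertical axis), by distance of the match centre from the peak summit in bp (horizontal axis). The orange line shows the 500 strongest peaks and the grey line all optimal peaks. In the members the matches pile up at the summit, with 64.4% within 25 bp.

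A total of 25 sequences was searched on both strands of the central 100 bp, and 17 were at least 1.5 times as frequent in the centres of members as in their flanks. The sequences were the glucocorticoid response element, its half-site AGAACA, AP-1 (TGAGTCA), CRE (TGACGTCA), FOX (TGTTTAC or TATTTAC), TEAD (GGAATG), ETS (AGGAAGT or CGGAAGT), NKX2 (CACTTGA), STAT (TTCCNGGAA) and the sequence AGATAA of GATA factors. The others were C/EBP (TTGCGCAA or TTGCACAA), SOX (ACAATGG), KLF (GGGTGTGG), SP (GGGGCGGGG), RUNX (TGTGGTTT), HIF (ACGTGC), GRHL (AACCGGTT or AACCAGTT), HNF4 (CAAAGTCCA), the E-boxes CAGCTG and CATCTG, and NFI, CTCF, MEF2, NF-kappaB and HNF1 by the usual consensus of each. A half-site can lie within a full element, and 35 of the 115 members with a half-site also held a full one. Half-sites without a full element were in 80 members (16%), against 11.3% of all optimal peaks. Of the 17 sequences at 1.5 times or more in members, all but the half-site (1.42) and HIF (1.27) also reached 1.5 over all optimal peaks. The count of 17 is therefore not particular to the members. Some of the 17 rested on few windows, such as NF-kappaB with 1 centre and 1 flank and GRHL with 2 centres and 1 flank. A match is a description of the letters and not a sign of binding, and 103 members held none of the 25.

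Besides the hormone element and its half-site, which was in 23.0% of members and 12.3% of all optimal peaks, members most often held sequences of factor families that are active in lung epithelium and vessels. TEAD factors, the DNA-binding partners of YAP and TAZ in the Hippo pathway, had their sequence in 17.4% of members, 5.9% of flanks and 11.6% of all optimal peaks. Forkhead factors, which include FOXA1, FOXA2 and FOXF1 of the lung, had theirs in 12.2% of members, 2.4% of flanks and 7.90% of all optimal peaks. The GATA sequence was in 12.2% of members and 8.30% of all optimal peaks. NKX2 factors include NKX2-1, which specifies lung epithelium, and the NKX2 sequence was in 7.0% of members (5.08 to 9.58%) against 3.13% of all optimal peaks. ETS factors such as ERG act in endothelium, and the ETS sequence was in 10.6% of members (8.20 to 13.6%) beside 9.13% of all optimal peaks, so that the interval of the members held the share of all peaks. STAT sequences were in 3.0% of members and 1.54% of all optimal peaks. At ranks 501 to 1000 the shares were 18.2% for TEAD, 12% for forkhead, 11% for GATA and 3.2% for STAT sequences. They were 20.2% for the half-site, 9.8% for ETS and 5% for NKX2 sequences, so most of these shares were not particular to the members.

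The sequences of AP-1, the E-boxes, CTCF, HNF1 and HNF4 were no more frequent in members than in all optimal peaks. The AP-1 sequence, that of FOS and JUN dimers, was in 4.8% of members (3.25 to 7.04%), 5.94% of all optimal peaks and 9.0% of those ranked 501 to 1000. The E-box CAGCTG was in 5.2% of members against 8.04% of all optimal peaks, and in members it was less frequent in centres than in flanks (6.0%). CTCF, which insulates chromatin domains, had its sequence in 2 members (0.4%) against 2.05% of all optimal peaks. HNF1 and HNF4, factors of liver and gut, had none in 500 centres, beside 0.0208% and 0.136% of all optimal peaks. The interval of that count reached 0.762% and held both shares, so the absence says nothing particular about the members.

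**Figure D3:**
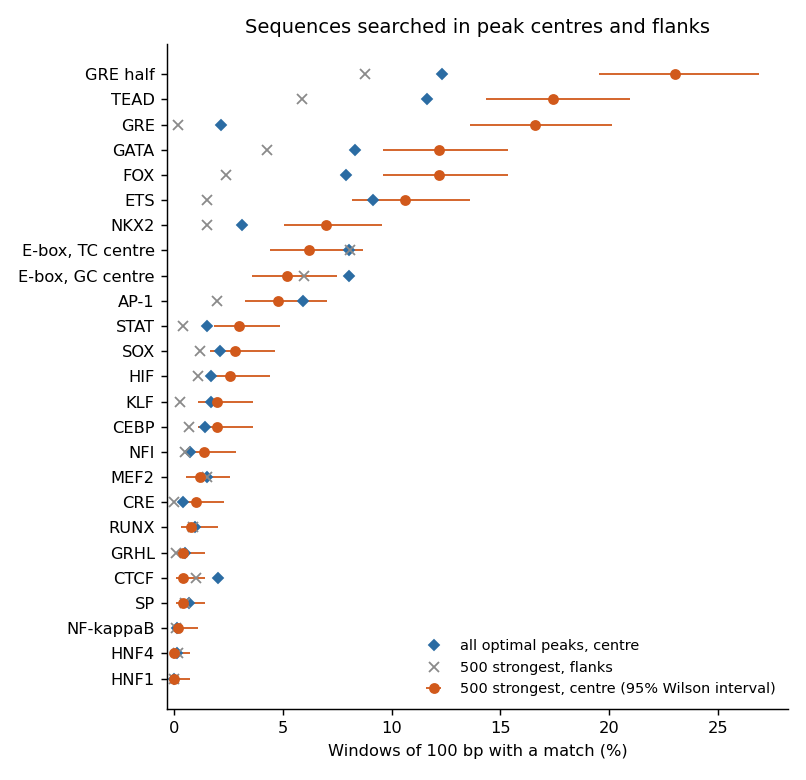
Share of 100 bp windows with a match (%, horizontal axis) for each of 25 sequences (vertical axis). Orange points are the centres of the 500 strongest peaks with 95% Wilson intervals, grey crosses their flanks and blue diamonds the centres of all optimal peaks. GRE stands for the glucocorticoid response element. The element is at 16.6% of member centres and 2.17% of all centres, while AP-1 and CTCF sequences are not above the share in all centres.

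Further windows of 60 bp, on the same strand and build, show a match in a lower-ranked member for each of 5 sequences. They are not in every case the strongest such member: a stronger one with a STAT sequence is not shown, and for KLF the member of Cyp2w1 ranks higher. Capitals mark a CRE at Tmem100, a glucocorticoid response element at the second Zbtb16 member, a STAT sequence at Cyp2w1, an ETS sequence on the minus strand at Cttnbp2nl, whose centre also held a glucocorticoid response element, and a KLF sequence at Fam50b.
Tmem100, chr11:90094197-90094256: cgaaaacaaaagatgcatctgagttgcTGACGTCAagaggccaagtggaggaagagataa
Zbtb16, chr9:48737578-48737637: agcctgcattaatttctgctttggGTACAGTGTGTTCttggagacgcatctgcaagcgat
Cyp2w1, chr5:139364734-139364793: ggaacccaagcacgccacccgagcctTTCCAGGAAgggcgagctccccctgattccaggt
Cttnbp2nl, chr3:105020465-105020524: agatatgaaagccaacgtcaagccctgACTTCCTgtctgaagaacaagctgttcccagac
Fam50b, chr13:34709130-34709189: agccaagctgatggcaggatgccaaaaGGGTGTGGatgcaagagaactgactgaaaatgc
Tmem100 encodes a membrane protein of lung endothelium. It was the nearest gene to 3 members, at ranks 38, 59 and 402. The CRE lay in the member of rank 59, 63.9 kb from the gene, and 5 members held a CRE (1%, 0.428 to 2.32%), beside 0 of 1000 flanks and 0.409% of all optimal peaks. The strongest members with other sequences lay nearest to 4930432M17Rik for AP-1 (rank 41), Mbip for NKX2 (rank 25), Ap1m1 for GATA (rank 15), Zbtb16 for NFI (rank 21) and Eif4h for HIF (rank 14). GRHL was first met at Prkab1 (rank 400) and NF-kappaB at Ctnnb1 (rank 272).

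Members lay away from start sites, mostly at middle distances. A summit was called promoter when it lay within 1 kb of the transcription start site of a protein-coding gene in GENCODE vM21, and otherwise exon, intron, noncoding gene or intergenic. Promoters held 33 members (6.6%, 4.74 to 9.12%), against 13.2% of all optimal peaks. With the strongest 500 peaks of either library in their place, the promoter share was 6.3% ± 0.707 (SD, n = 2). Introns of coding genes held 219 members (43.8%) beside 42.4% of all optimal peaks, and intergenic sequence held 197 (39.4%) beside 34.3%. Exons held 13 (2.6%) and noncoding genes 38 (7.6%), beside 3.10% and 6.94%. At ranks 501 to 1000 promoters held 7.2%, introns 41.6% and intergenic sequence 41.2%, so the low promoter share was not particular to the members. The rank 2 member at Lmo7 counts as exonic because it falls in an exon of one of that gene's transcripts.

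The median distance to the nearest coding start site was 28.9 kb in members and 21.7 kb in all optimal peaks. The share between 10 and 100 kb was 62.0% (57.7 to 66.1%) in members and 48.9% in all. Within 10 kb the shares were 24.2% and 34.6%, and beyond 100 kb 13.8% and 16.5%. The longest distance was 644 kb. Counting start sites of all gene types shortened the median to 10.9 kb and brought the share within 1 kb to 12.4%. At ranks 501 to 1000 the median distance to a coding start site was 27.8 kb, near that of the members. There 26.2% lay within 10 kb, 55.4% between 10 and 100 kb and 18.4% beyond 100 kb. These differences were not tested.

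The gene around a member was not always the nearest one. Coding gene bodies held 248 members in 206 different host genes. Of the 219 intronic members, 42 (19.2%) were nearest to the start site of another gene than their host. Among members in genes with at least 2 introns, 60 of 212 (28.3%, 22.7 to 34.7%) lay in the first intron, beside 34.2% of such optimal peaks. Examples of a host that differs from the nearest gene were Mthfd1, a folate enzyme gene, which held the member nearest to the kinase anchor gene Akap5, and Poc1a, a centriole gene, which held that nearest to the phosphatase gene Dusp7.

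Beyond the 10 strongest, members at ranks 11 to 30 lay near genes of varied functions. Hopx, a homeodomain-only protein gene and a marker of alveolar type 1 cells, the flat cells of gas exchange, was 36.1 kb from the intergenic member of rank 16, which had signal values of 263 in replicate 1 and 228 in replicate 2. Akap5, which encodes an anchor of protein kinase A, was 6.05 kb from the member of rank 12 (249 in replicate 1 and 253 in replicate 2). Ccnd3, encoding cyclin D3, held the member of rank 26 in an intron 2.91 kb from its start site (222 and 229). Hipk2, a nuclear kinase gene, held that of rank 23 at 1.72 kb (244 and 225), and Plxna2, a semaphorin receptor gene, that of rank 13 at 32.4 kb (274 and 221). The members in Ccnd3, Hipk2 and Plxna2 each held a glucocorticoid response element.

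At the same ranks, Eif4h (rank 14) encodes a translation initiation factor, Ap1m1 (rank 15) a clathrin adaptor subunit, Ddx47 (rank 17) an RNA helicase and Vps13d (rank 18) a lipid transfer protein. Klf6 (rank 20) encodes a zinc finger factor induced early after many stimuli, and its member lay 257 kb away. Further members lay in Cttnbp2nl (rank 19), Rasgef1b (rank 22) and Rin2 (rank 27), an activator of the small GTPase RAB5. Mbip (rank 25) and Selenbp1 (rank 30) were nearest to intergenic members at 81.1 and 19.1 kb. Ranks 11 and 21 belonged to Zbtb16, rank 24 to the promoter of Ostc and rank 29 to an intron of Poc1a, named above.

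Few genes were nearest to several members. The 500 members had 403 different nearest coding genes, and 337 of these had 1 member, 44 had 2 and 16 had 3. The other 6 genes had 4 or more. Zbtb16, a zinc finger factor gene induced by glucocorticoids, had 6, all in its introns between 60.1 and 112 kb from its start site, at ranks 1, 11, 21, 70, 170 and 309. Gramd2, an alveolar type 1 marker, had 5, all in the gene body, at ranks 64, 77, 122, 310 and 498, with the nearest 0.299 kb from a start site. Ddx47 had 4 between 0.774 and 11.2 kb. Sftpb, encoding the surfactant protein B that alveolar type 2 cells secrete, had 4 intergenic ones between 11.1 and 32.2 kb. Cttnbp2nl had 4 within the gene, of which 1 lay in an exon. Klf6 had 4, of which 1 was 19.9 kb away and the furthest 269 kb.

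Members were mostly alone among the strongest but seldom alone among EP300 peaks. With members joined when no more than 10 kb apart, 86 of the 500 (17.2%) lay in 39 runs, of which 33 had 2 members, 4 had 3 and 2 had 4. No members overlapped each other, the median distance to the next member was 477 kb, and 203 had none within 1 Mb. Yet 86.4% of members had another optimal peak within 10 kb, against 70.1% of all optimal peaks, and 21.2% had at least 5, against 9.11%. Peaks ranked 501 to 1000 were nearly as crowded. Their mean number of other optimal peaks within 10 kb was 2.49, beside 2.88 in members and 1.77 in all optimal peaks. Fewer members overlapped another optimal peak (10% against 20.04%). Peak widths differed as well, and were not tested beside the overlap: 96.9% of optimal peaks had the same width of 424 bp, but only 5 members did, and the median width of members was 242 bp. Narrow peaks were not particular to the members, since the median width at ranks 501 to 1000 was 193.5 bp.

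The largest runs were a row of separate summits with weaker peaks between them. The Zbtb16 run (chr9:48736366-48745378) held 4 members in 9.01 kb, and 3 of them had a glucocorticoid response element. It did not include the rank 1 member of that gene. The Cttnbp2nl run (chr3:105008010-105020669) held 4 in 12.7 kb, 2 with an element. The 3 members at Ddx47 spanned 8.32 kb, and the 3 at Sik1, a kinase gene induced by cyclic AMP, spanned 15.2 kb, lying 41.8 to 56.7 kb from that gene. Elements were counted in the central 100 bp of members, and neither run held one there. The Sik1 member of rank 130 had one 99 bp from its summit. The 3 members at Slc10a6, a steroid sulfate transporter gene, spanned 18.6 kb with 1 element, and the 3 nearest to Sftpb spanned 8.44 kb with none.

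**Figure D4:**
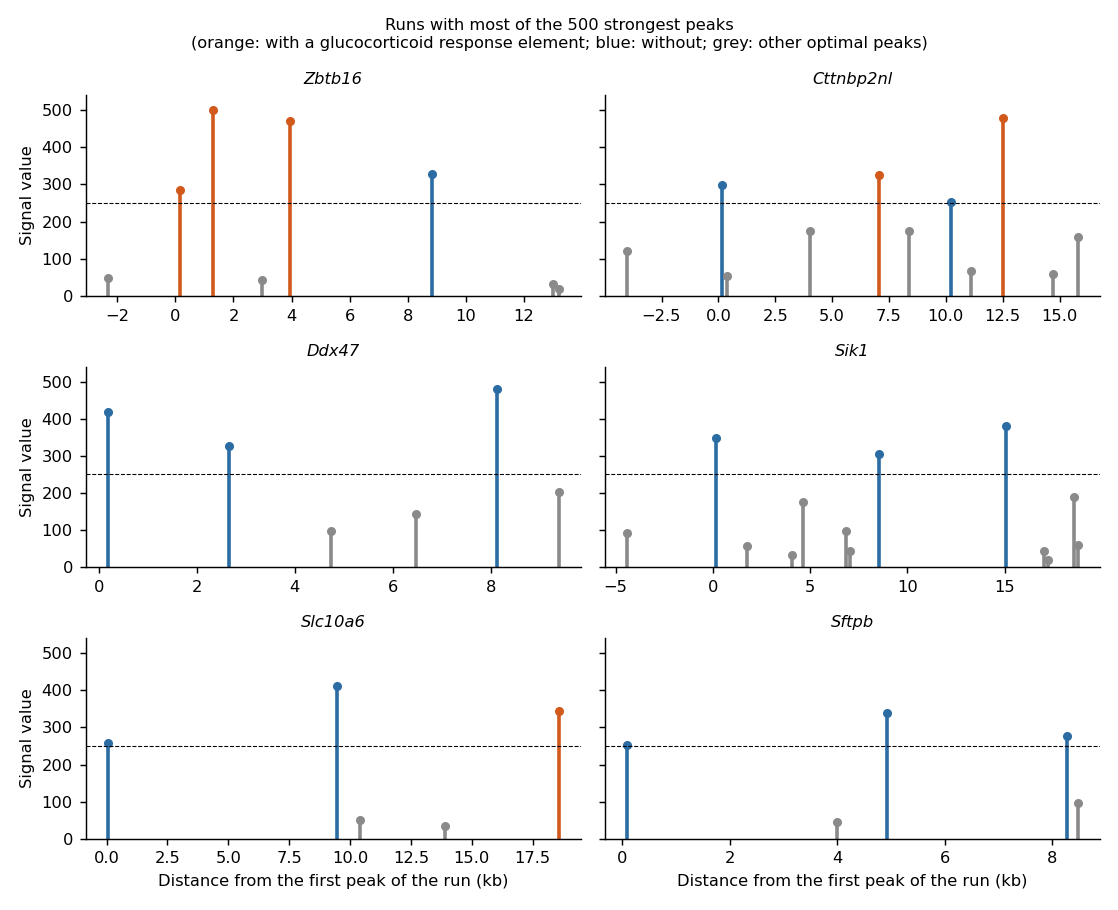
Signal value (vertical axes) of optimal peaks in the 6 largest runs, by distance from the first member's start in kb (horizontal axes, each with its own scale). Orange stems are members with a glucocorticoid response element, blue stems members without, grey stems other optimal peaks, and the dashed line marks the lowest member. The Zbtb16 run has 3 orange stems of its 4 members, and weaker peaks stand between members in each run.

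Gene lists were counted beside the background over all coding genes. Of 20780 genes, 349 (1.68%) were nearest to a member within 100 kb, and 206 (0.991%) had a member inside. Members were 431 of 36162 optimal peaks (1.19%) within 100 kb of a coding start site. The 22 lists of cell types and pathways were chosen with earlier results of these data known, so their counts are descriptions. In all, 90 members were nearest to a listed gene within 100 kb. That limit holds for the list counts below, and it leaves out, among others, the rank 1 member of Zbtb16 and 3 of the 4 members of Klf6.

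Alveolar type 1 markers had the highest share of the 22 lists, with 11 of 22 genes nearest to a member, and 6 had a member inside. They had 23 members out of 205 optimal peaks (11.2%). Lmo7, a LIM domain gene, had 3 members, led by rank 2, which had signal values of 286 in replicate 1 and 276 in replicate 2. Gramd2 had 5, led by rank 64 (211 and 176), Hopx 2 and Akap5 1. A TEAD sequence was in 11 of these 23 members and a glucocorticoid response element in 1, counts taken with the values seen. Over all 500 members the shares were 17.4% and 16.6%. Alveolar type 2 and surfactant genes had fewer, 3 of 23. These were Sftpb, the protease gene Ctsh and the lipid enzyme gene Lpcat1. Their 7 members of 153 optimal peaks (4.58%) held a FOX sequence in 4 and no glucocorticoid response element, beside 12.2% and 16.6% of all 500 members.

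Glucocorticoid-responsive genes were nearest to a member in 10 of 29 cases, with 17 members of 322 optimal peaks (5.28%), and 9 of the 17 held a response element, beside 83 of all 500 members. Zbtb16 alone gave 4 of the 9. Besides Zbtb16 they included Fkbp5, a co-chaperone that restrains the receptor, with members at ranks 47 and 499. The member of rank 47 had signal values of 230 in replicate 1 and 185 in replicate 2. Ddit4, an inhibitor of mTORC1 signalling, had members at ranks 54 and 95, of which that of rank 95 held an element. Cebpd, a C/EBP factor gene, was nearest to rank 76. Period genes of the circadian clock, which glucocorticoids also induce, gave 2 of 19 clock genes, Per2 (rank 50) and Per1 (rank 110), each with an intronic member that held an element.

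The other lists had between 1 and 8 genes nearest to a member. Cytoskeleton and focal adhesion genes had 8 of 31, led by Cdc42ep4 and including Limch1, Actn1 and Dlc1, with 10 members of 499 optimal peaks (2.00%). Hypoxia genes had 4 of 21, namely Bnip3, Ddit4, Vegfa and Epas1, and 7 members of 107 optimal peaks (6.54%). Lung transcription factors had 5 of 32, led by Hopx, Irx1, Nkx2-1 and Foxp1, with Nkx2-1 20.1 kb from the member of rank 126, and members were 3.14% of their optimal peaks. Genes of the Hippo pathway had 4 of 26 (Tead1, Wwc1, Ccn1 and Dlc1), and extracellular matrix genes also 4, of 31, led by Npnt, Col4a1, Timp3 and Col4a3. Members were 2.02% of the optimal peaks of the Hippo list and 2.14% of those of the matrix list. Fibroblast, smooth muscle and pericyte genes had 3 of 25, Npnt, Cox4i2 and Limch1 (2.29% of their optimal peaks), and immediate early genes 3 of 25, Fos, Klf6 and Ier3. Within 100 kb the immediate early genes had 195 optimal peaks, of which 3 were members (1.54%), beside the background of 1.19%. Ribosomal protein genes had 3 of 22 (Rps19, Rpl32 and Rpl4), with 3 members of 31 optimal peaks (9.68%). By that share, which rests on few peaks, only the alveolar type 1 list was higher. Endothelial markers had 2 of 29, Egfl7 and S1pr1, but 5 members of 241 optimal peaks (2.07%). With genes that had a member inside counted as well, endothelial markers had 3 and lung transcription factors 6. Matrix genes then had 6 and glucocorticoid-responsive genes 11, and no other list changed. The TGF-beta and BMP list had 2 of 35 (Smad6 and Tgfbr3), and genes of FGF and receptor tyrosine kinase signalling had 1 of 35, Cblb. Members were 2 of 271 (0.738%) and 2 of 251 (0.797%) of the optimal peaks of these lists, beside the background of 1.19%. Counts this small cannot show a shortfall.

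No gene of 7 further lists was nearest to a member. These were airway epithelium, macrophage and myeloid, lymphocyte, erythroid, hepatocyte, cardiac and skeletal muscle, and neuronal genes, 118 genes in all with 126 optimal peaks. Where 1.19% of peaks are members, few could be met among so few peaks.

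Promoter members had a lower median GC content than promoter peaks in general and mostly lay upstream. The median GC content of their centres was 47% (range 26 to 70%), against 53% in all 5732 promoter peaks of the optimal set, and 9 of 33 (27.3%) were at or below 40% GC against 10.96% of those. Upstream of the start site lay 27 of 33 (81.8%), beside 67.0% of all promoter peaks, and 17 lay 50 to 150 bp from the start site (51.5% against 24.7%). Ostc, encoding a subunit of the enzyme that glycosylates proteins, had the strongest at rank 24, with signal values of 214 in replicate 1 and 244 in replicate 2 and a GC content of 26%. Riok2, a ribosome assembly kinase gene, followed at rank 40 (228 and 197). Next came Gramd2 at rank 77, Wdr77 at rank 93 and Map3k6 at rank 98, then Taf6, Cdc40, Cdk12 and Slc10a6 at ranks 116 to 134. A glucocorticoid response element was in 3 of the 33, at Map3k6, Slc10a6 and Scnn1a, an epithelial sodium channel subunit gene used in clearing lung fluid. Crem, a cyclic AMP response factor gene, had a CRE in its promoter member at rank 293.

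The promoter centres below, chosen with their values seen, show these contrasts in letters: the AT-rich Ostc centre, the Scnn1a centre with its glucocorticoid response element and the Psmd5 centre with TCTCGCG in capitals, where matches on the 2 strands overlap. TCTCGCG was in 3.14% of all promoter peaks.
Ostc, chr3:130709512-130709611: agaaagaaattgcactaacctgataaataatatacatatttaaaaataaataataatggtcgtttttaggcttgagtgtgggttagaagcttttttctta
Scnn1a, chr6:125320490-125320589: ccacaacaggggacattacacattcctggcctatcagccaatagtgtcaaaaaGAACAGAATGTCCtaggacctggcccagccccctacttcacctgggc
Psmd5, chr2:34870968-34871067: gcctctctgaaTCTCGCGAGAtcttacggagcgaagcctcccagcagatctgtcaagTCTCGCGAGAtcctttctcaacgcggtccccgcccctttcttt
The Ostc centre held none of the 25 sequences.

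The libraries placed the members high and near one another in rank. Every member had a peak with its summit within 100 bp in replicate 1, and 499 did in replicate 2. Their median rank was 250.5 in replicate 1 and 254 in replicate 2, and the lowest-placed were at 936 and 1134. Of the members, 388 (77.6%) were among the strongest 500 of both libraries, 54 of replicate 1 only, 55 of replicate 2 only and 3 of neither. Of ranks 1 to 100, 99 were among the strongest 500 of both, and of ranks 401 to 500, 18 were. This contrast follows largely from a cut at 500, since members near the limit fall to either side of it. Among the strongest 1000 of both libraries were 498 members. Signal values were a median 1.21 times higher in replicate 1, in 458 of 499 members. With that ratio removed, 497 were within 1.5-fold of each other, and the SD of the log2 ratio was 0.199. The rank of a member uses both libraries, so that high ranks in each follow in part from the choice.

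**Figure D5:**
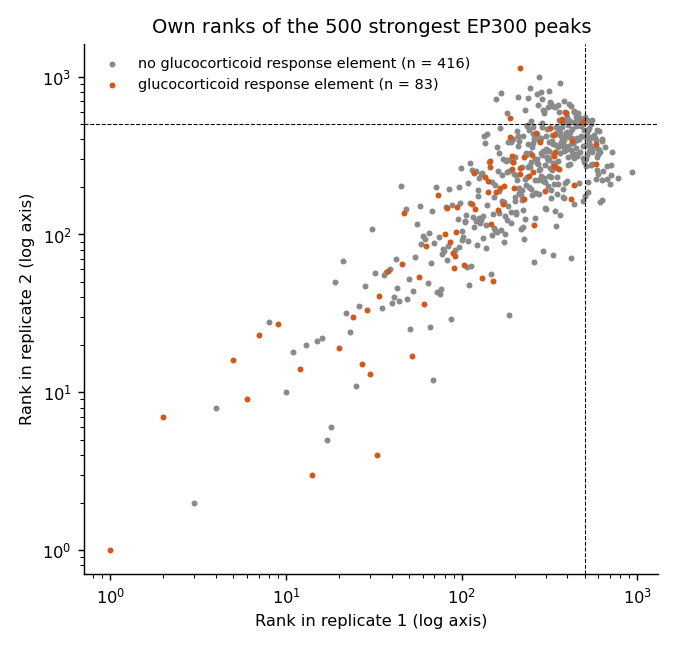
Rank of each member in replicate 1 (horizontal axis) and replicate 2 (vertical axis), both on log axes, for the 499 members with a peak in both libraries. Orange points hold a glucocorticoid response element and grey points do not, and dashed lines mark rank 500. Most points, 388, lie below both lines.

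Some members differed more. The second Zbtb16 member, at rank 11, was 33rd in replicate 1 and 4th in replicate 2 (signal values 232 and 269). The member nearest to Cebpd, in an intron of Spidr, had signal values of 176 in replicate 1 and 209 in replicate 2, and that in Pde4b, a phosphodiesterase gene, 146 and 180.5. The Ostc promoter peak was 69th and 12th. In the other direction, the member near Pim3, a kinase gene, was 214th in replicate 1 and 1134th in replicate 2 (172 and 87.9). The member without a peak in replicate 2 was rank 63, in an intron of Bcl2l1 and nearest to Cox4i2. The nearest summit of replicate 2 there was 104 bp away, with rank 77 and a signal value of 177.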

How the data were processed

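EP300 ChIP-seq peaks of 2 newborn lung libraries were used as deposited. Per the deposited notes, reads were aligned to mm10, 300000 peaks were called in each library and in both pooled, and reproducible peaks were selected by the irreproducible discovery rate (IDR). The aligner and the peak caller are not given in the sources used here, and signal values were used as the authors deposited them, and depth is unknown because no counts were given. Optimal peaks on chromosomes 1 to 19 were ranked by signal, and the 500 highest were kept. All 43296 carried the position and signal of the pooled list. Nearest genes and classes came from GENCODE vM21 on GRCm38, and sequences from the RefSeq genome of that build. Each library's peak was the strongest with a summit within 100 bp. Sequences were matched in the central 100 bp and in flanks 500 bp away.

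The members and gene lists were chosen with earlier results of these data known. Of 517 list symbols 503 were found, 2 by older names. Genes were named by rank (1 to 30 and around the limit), by number of members, as the leading 4 of a list, in the 6 largest runs, in promoters (the leading 10), by difference between libraries and as the strongest with each sequence. Psmd5, Scnn1a, Crem, the promoter genes with TCTCGCG and the genes with several response elements, with the list counts of sequences, were added with values seen. Some genes that this rule names are not reported here. All 28 steps of a check on simulated peaks recovered what was planted. Python 3.11.15, numpy 2.4.6, scipy 1.17.1 and matplotlib 3.10.9 were used.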

Additional observations from a re-analysis of the deposited data

How the results depend on the processing

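Across the alternatives run for each, 383 to 389 members were among the strongest 500 of both libraries, 62 (gap 5 kb) to 121 (gap 25 kb) lay in runs and 400 to 434 genes were nearest, all within 1.5 times the reported counts. With each library alone the promoter share was 5.8 to 6.8%, the median distance 28.9 to 29.1 kb, the intron share 42 to 44% and the response element share 16.4% in both. The promoter share was 9.6% with a 2 kb window and 12.4% with start sites of all gene types, which brought the median distance to 10.9 kb. With introns of all gene types the intron share was 46.2%. The distance was 27.4 kb in the strongest 250 and 28.4 kb in the strongest 1000. The response element share was 23.6% and 13.1% in these, 10.4% in 50 bp, 18.6% in 200 bp, 3.2% with perfect half-sites and 24.8% with the core only (all optimal peaks 1.16, 2.75, 0.381 and 7.08%). The cause was not tested. No paired analysis was possible because there is 1 group. Depth is unknown, so precision beyond counting error cannot be stated, and peaks of like signal near the limit could change places.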

Other observations

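A further sequence, TCTCGCG, was noticed in promoter members with their values seen. It lay in the central 100 bp of 6 of 33 (18.2%, 8.61 to 34.4%), those of Wdr77, Cdk12, Denr, Rbm39, Psmd5 and Rraga, against 3.14% of all promoter peaks. Outside promoters 0 of 467 members held it, and 180 of the 200 optimal peaks with it were promoter peaks. The 9 promoter members at or below 40% GC included Ostc, Riok2, Taf6, Cdc40 and the ribosomal protein genes Rpl32 and Rpl4. None of the 9 held a glucocorticoid response element.

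Annotated repeats covered a mean of 5.77% of the central 100 bp of members and 10.04% in all optimal peaks, while flanks were alike at 21.5% and 21.4%. GC content was the same, with a median of 47% in both. The share of a chromosome's optimal peaks that were members ran from 0.745% on chromosome 15 to 1.78% on chromosome 17, which had 32.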
